A study of Mus musculus with 12 samples.

Results

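Macrophages that stayed outside tumour spheres were followed from 24 h to 48 h of culture. They make up 6 of the 12 arrays of the series, 3 at 24 h and 3 at 48 h, chosen by their labels for location and time and paired by replicate number. The cells were bone marrow-derived macrophages of C57BL/6 mice, added in equal number to spheres that the mouse neuroblastoma line TT9423 had formed overnight on agar, and those taken here from the agar culture had not entered a sphere. All 4 groups shared this background, since in-sphere macrophages, which carry a CD11b-positive label, came from the same cultures after enzyme digestion and selection on CD11b columns, also at 24 h and 48 h with 3 arrays each. Whether the outside cells were digested or selected, and the age and sex of the mice, are not given in the sources used here. Times are those on the labels, although the protocol text of the 48 h arrays also speaks of 24 h of co-culture. The labels call each replicate an independent experiment, in which the cells of several wells were pooled. Arrays of one number at 24 h and 48 h were treated as one experiment, called experiment 1, 2 or 3 below. The labels name no transgene and no drug treatment for any group.

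Bone marrow-derived macrophages are grown from marrow progenitors, so such cultures can hold cells at several steps from granulocyte and monocyte precursors to mature, adherent macrophages. Ly6C-high monocytes carry the chemokine receptor CCR2 and lose it as they mature. Maturing macrophages leave the cell cycle and build up lysosomes, and under RANKL those of bone fuse into osteoclasts, which acidify and resorb bone matrix. Macrophages also answer microbial products, dying cells and interferons with cytokines, chemokines and interferon-stimulated genes, many of which rise within hours and fall again.

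Each gene was read from 1 probe set, the brightest that names that gene alone, as a log2 value, so 1 unit is a 2-fold difference. Over the outside arrays the mean log2 value of all probe sets ran from 4.20 to 4.22, and no 2 arrays held identical values. The beta-actin control, read near the 3' and the 5' end of its transcript, gave a 3'-5' difference of 0.285 ± 0.0535 (SD, n = 3) at 24 h and 0.386 ± 0.0134 (SD, n = 3) at 48 h. These did not overlap, with a 2-sided exact permutation p of 0.10, the smallest that 3 against 3 arrays allow. For GAPDH the values were 0.0522 ± 0.108 and 0.0794 ± 0.0235 (SD, n = 3 each), with an exact permutation p of 0.70. The part of RNA quality in the results was not tested. Macrophage identity genes were high on every array, with a mean log2 value over 21 tested markers of 9.78 to 9.90 at 24 h and 9.84 to 9.94 at 48 h. Their members included Adgre1 (the adhesion receptor EMR1), Csf1r (the receptor for CSF-1) and Itgam (CD11b). The mean over 16 genes of secondary granules and neutrophils was also high, at 10.23 to 10.80 and 9.86 to 10.59. The high macrophage mean therefore does not show that the arrays held RNA of macrophages alone.

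The first principal component of the outside arrays held 42.4% of the variance. In experiments 1, 2 and 3 its score was -3.20, -22.2 and -19.1 at 24 h and 26.2, 5.98 and 12.3 at 48 h, so each 48 h array lay above its own 24 h array and the groups did not overlap. Experiment 1 lay highest at both times. The second component, with 25.2%, and the map of both scores separated experiment 2 from experiment 3 at each time.

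**Figure D1:**
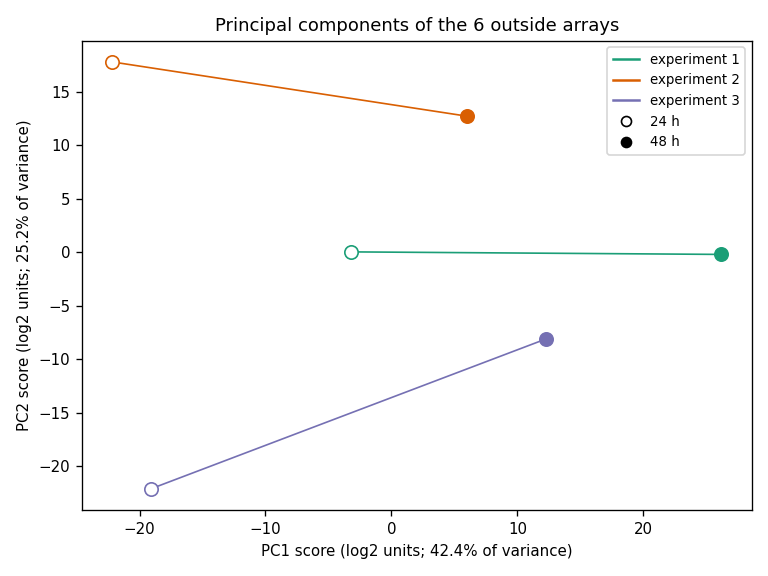
Scores of the 6 outside arrays on the first and second principal components, in log2 units, over the genes tested. Open circles are 24 h and filled circles 48 h, and a line joins the arrays of an experiment. Every line runs to the right, and experiment 1 starts and ends furthest right.

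Between 24 h and 48 h, 709 of 11787 genes passed the paired test, 321 of them higher and 388 lower at 48 h (limma with the experiment as a block, Benjamini-Hochberg adjusted p under 0.05). These were 6.02% of the genes tested, 2.72% higher and 3.29% lower. List counts below are to be read against these shares. All 709 changed in the called direction in 3 of 3 experiments. Large changes were more often falls: 28 called genes were at least 1 log2 unit higher (0.238% of those tested) and 89 at least 1 lower (0.755%). The median of all genes was 0.04. Levels at 24 h and 48 h did not overlap for 519 of the 709 called genes, and over all genes 13.9% lay wholly higher and 8.74% wholly lower at 48 h. The counts rest on the pairing: without the block 1 gene passed, Hba-a1, with 1841 at an unadjusted p under 0.05, and with all 12 arrays in 1 model 42 passed without and 249 with the block. All of these 42 and 249 genes were among the 709. Leaving out experiment 1, 2 or 3 gave 600, 259 or 245 calls, of which 466, 232 and 220 were among the 709.

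**Figure D2:**
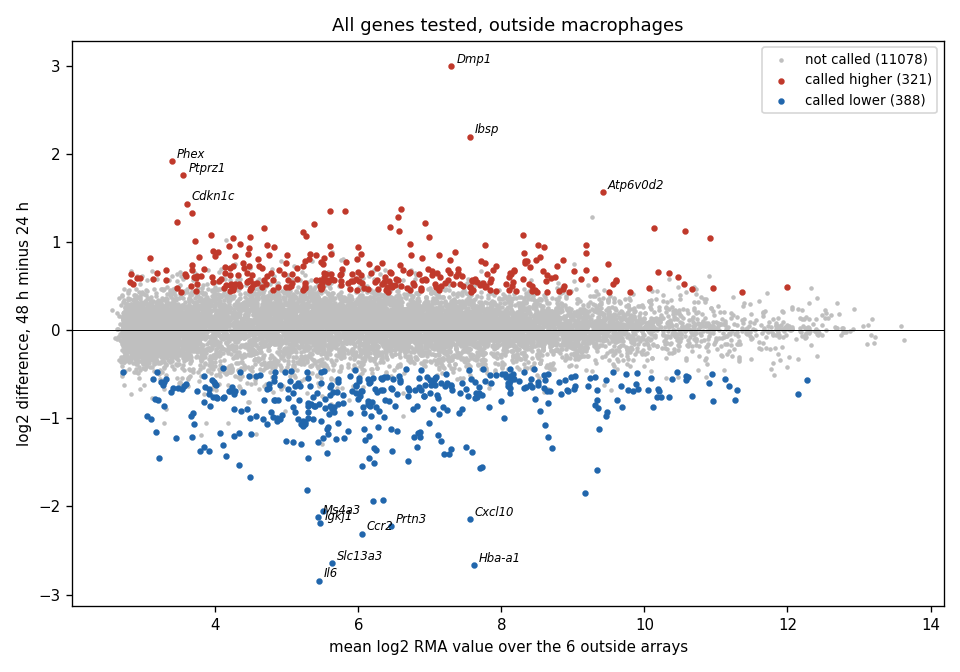
Log2 difference between 48 h and 24 h of each gene tested, against its mean log2 value over the 6 outside arrays. Red points are the 321 genes called higher, blue points the 388 called lower and grey points the genes not called. The blue points reach further from 0 than the red ones over most of the range, and Dmp1 and Il6 lie at the ends.

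The largest rises were in genes of mineralised bone matrix. Dmp1, an acidic phosphoprotein of bone and dentin matrix, read 6.09, 7.22 and 4.10 at 24 h and 9.05, 9.55 and 7.78 at 48 h in experiments 1, 2 and 3. Its levels did not overlap, and it rose by 2.99 ± 0.23 on the log2 scale (SE, n = 3 pairs), which is 7.97-fold (limma, adjusted p = 0.00313). Ibsp, the integrin-binding bone sialoprotein, read 6.00, 7.24 and 6.16, then 8.43, 8.86 and 8.70, a rise of 2.20 ± 0.18 (SE, n = 3 pairs; adjusted p = 0.00313). Experiment 2 was the highest for both genes at both times. Phex, a membrane endopeptidase that acts on bone matrix proteins, was not above the level used to filter dim probe sets (2.77) on any 24 h array, at 2.45, 2.45 and 2.40, and read 4.45, 5.15 and 3.45 at 48 h. Against that level its rise was at least 1.57 on the log2 scale, with an adjusted p of 0.0148 in the fit. With the mean of all its probe sets in place of the brightest, Phex gave 0.94 (adjusted p = 0.0372).

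Of the 11 bone matrix and osteoblast genes tested, 7 rose and 0 fell, with a median difference of 0.96. Besides those above, Col1a1, the main collagen of bone and connective tissue, rose by 1.35 ± 0.13 from 4.56, 5.50 and 4.71 to 6.10, 6.51 and 6.21 (adjusted p = 0.00439). Postn, a matricellular protein, rose by 1.28 ± 0.12 (adjusted p = 0.00438). Sparc, a collagen-binding matrix protein, rose by 0.96 ± 0.14 and Bglap, osteocalcin, by 0.84 ± 0.14 (SE, n = 3 pairs; adjusted p = 0.0138 and 0.0226). Both of these lost their call without experiment 3, at 0.85 and 0.72, with adjusted p-values of 0.0626 and 0.0932. The 4 members not called had smaller differences, among them Sp7, the osteoblast transcription factor, at 0.12 (adjusted p = 0.665), with levels of 4.12 to 4.66 at 24 h and 4.43 to 4.55 at 48 h. Over the list the mean log2 value ran from 5.56 to 6.13 at 24 h and from 6.74 to 7.04 at 48 h. The fibroblast and stromal list, which shares Col1a1, Postn and Sparc with it, had 4 genes that rose and 1 that fell of 13 tested, with a median of 0.06. The fibroblast receptors Pdgfra and Pdgfrb gave -0.10 and -0.07 (adjusted p = 0.772 and 0.814). The mean of that list ran from 5.53 to 6.00 and then 5.59 to 6.47, with overlap. In RNA from many cells, fewer cells of a type and less RNA per cell cannot be told apart, here and in every result that follows, and the part of stromal cells in the collagen rise was not tested.

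**Figure D3:**
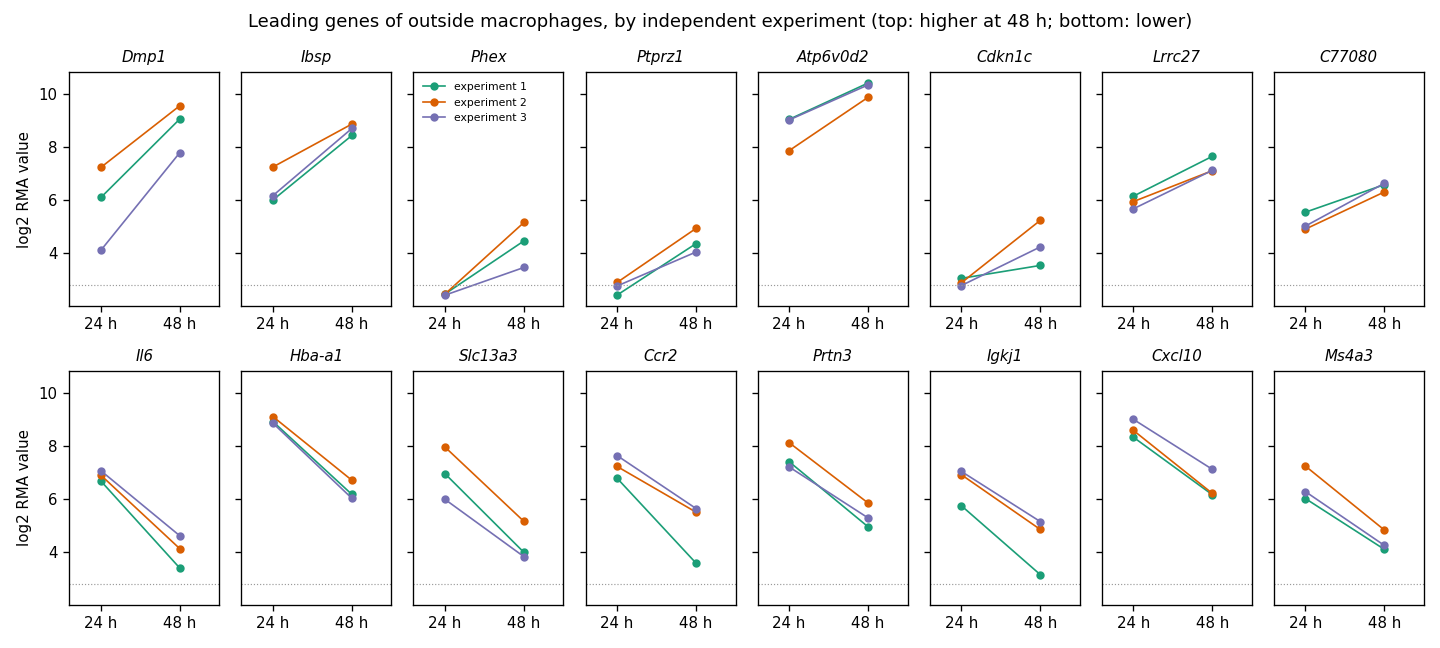
Log2 RMA values of the 8 leading genes higher at 48 h (top row) and the 8 leading genes lower at 48 h (bottom row) in outside macrophages. Each line joins the 24 h and 48 h array of an experiment, and the dotted line is the level used to filter dim probe sets. All lines of a panel run the same way, while experiments differ in starting level, most for Dmp1.

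Genes of osteoclast differentiation rose in part. Atp6v0d2, the V-ATPase subunit that marks osteoclasts and is needed for their fusion, read 9.04, 7.86 and 9.01 at 24 h and 10.41, 9.87 and 10.34 at 48 h. It rose by 1.57 ± 0.15 (SE, n = 3 pairs; adjusted p = 0.00439), with no overlap. Of 17 osteoclast genes tested, 5 rose and 0 fell, against 2.72% of all genes higher, with a median of 0.12. Rragd, a Rag GTPase of the amino acid sensing machinery on lysosomes, rose by 1.06 ± 0.15, and Clcn7, the chloride transporter of the resorbing membrane, by 0.67 ± 0.09 (adjusted p = 0.0132 and 0.0136). Myo1d, an unconventional myosin, rose by 0.65 ± 0.13 (adjusted p = 0.0354). Without experiment 2 these 3 genes missed the threshold, at 0.92, 0.67 and 0.75 (adjusted p = 0.052, 0.0589 and 0.0704), and 1 of the 17 list genes was then called. Clcn7 and Myo1d also missed it without experiment 3, at 0.69 and 0.49 (adjusted p = 0.0515 and 0.102). With the mean of all probe sets Rragd gave 0.58 and Clcn7 0.41, and Clcn7 was not called (adjusted p = 0.0412 and 0.0502). Several genes that define the mature osteoclast were not called, among them the phosphatase gene Acp5 at -0.28, Ctsk, the collagen-degrading cathepsin, at 0.36, and Nfatc1, the master transcription factor, at 0.12 (adjusted p = 0.241, 0.0819 and 0.605).

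Lysosomal genes moved upward as a group by small steps. Every one of the 28 tested had a positive difference, with a median of 0.33, and for 24 of them all 48 h arrays lay above all 24 h arrays, against 13.9% of all genes. The mean log2 value of the list was 10.17, 9.90 and 10.03 at 24 h and 10.50, 10.35 and 10.42 at 48 h, so the groups did not overlap. At the threshold 5 rose and 0 fell. These were Atp6v0d2 and, with smaller differences, Naglu, Sgsh and Gusb, enzymes that break down glycosaminoglycans, and Cln3, a lysosomal membrane protein named after its values were seen. Naglu read 7.37, 6.94 and 6.90, then 8.20, 7.27 and 7.70, a rise of 0.65 ± 0.13 with a small overlap (adjusted p = 0.0341). Sgsh rose by 0.61 ± 0.10, Gusb by 0.57 ± 0.10 and Cln3 by 0.52 ± 0.11 (SE, n = 3 pairs; adjusted p = 0.0194, 0.0241 and 0.0452). The calls were sensitive to single experiments, with 6, 2 and 1 of the 28 called without experiment 1, 2 and 3. Without experiment 3 only Atp6v0d2 remained, and Naglu, Sgsh, Gusb and Cln3 gave 0.58, 0.58, 0.52 and 0.41 (adjusted p = 0.131, 0.0756, 0.0932 and 0.148). Sgsh, Gusb and Cln3 were also lost without experiment 2 (0.59, 0.56 and 0.54, adjusted p = 0.0809, 0.0927 and 0.126), and Naglu without experiment 1 (0.56, adjusted p = 0.0708). For Sgsh and Gusb the mean over all their probe sets was 0.36 and 0.37 and was not called (adjusted p = 0.159 and 0.0847). With an intensity trend in the variance model, 18 of the 28 were called. Transcripts of the MiT/TFE transcription factors that drive lysosomal genes, and of the Rag GTPases upstream of them, had 1 gene higher, Rragd, and 0 lower of 16, with a median of 0.11. Mitf, the factor shared by osteoclasts and melanocytes, gave -0.03 (adjusted p = 0.934).

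Many lysosomal promoters hold the palindrome CACGTG, the core of the motif that MiT/TFE factors bind. The stretches below show it for called genes that hold it, as the 150 bases before the RefSeq transcription start (GRCm38.p6, 5' to 3' on the gene's strand), with CACGTG in capitals. The same stretch of Gusb, also called, and that of the other Cln3 entry did not hold it. The motifs searched in this and the later sets were chosen after the values were seen, so they are a description with no test. The Naglu stretch is chr11:101069944-101070093 (plus strand), the Sgsh stretch chr11:119355511-119355660 (minus strand) and the Cln3 stretch chr7:126583237-126583386 (minus strand, 1 of 2 entries for this gene). A promoter entry was found for 23 of the 28 genes, and in the window from 250 bases before to 50 after the start 12 of them (52.2%) held CACGTG, against 11.5% of 9516 promoters of genes tested. Among all genes called higher the share was 16.0% of 256 promoters.
Naglu: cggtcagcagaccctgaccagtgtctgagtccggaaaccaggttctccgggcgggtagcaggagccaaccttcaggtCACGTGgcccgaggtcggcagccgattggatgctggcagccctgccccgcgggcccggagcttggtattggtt
Sgsh: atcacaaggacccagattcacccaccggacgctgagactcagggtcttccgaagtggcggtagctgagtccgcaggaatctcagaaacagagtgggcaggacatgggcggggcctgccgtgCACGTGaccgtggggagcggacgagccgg
Cln3: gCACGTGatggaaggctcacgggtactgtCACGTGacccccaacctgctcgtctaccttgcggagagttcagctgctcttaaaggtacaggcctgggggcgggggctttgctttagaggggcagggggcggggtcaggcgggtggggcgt

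Lipid handling, engulfment and secreted products of mature macrophages gave a few rises. Fabp4, a fatty acid-binding protein induced by PPAR gamma, read 9.63, 9.44 and 9.62 at 24 h and 11.02, 10.47 and 10.66 at 48 h, a rise of 1.15 ± 0.11 with no overlap (SE, n = 3 pairs; adjusted p = 0.00439). It was the only call of 20 genes of LXR and PPAR gamma lipid handling, against 6.02% of all genes called. The median of that list was 0.20, and Pparg itself gave 0.24 (adjusted p = 0.242). Mfge8, which bridges dying cells to integrins, rose by 0.97 ± 0.10 from 7.37, 7.32 and 7.18 to 8.47, 8.18 and 8.14 (adjusted p = 0.00574). Gas6, the bridge to the TAM receptors, rose by 0.65 ± 0.12 (adjusted p = 0.0282), a call lost without experiment 2 (0.75, adjusted p = 0.0591) and without experiment 3 (0.52, adjusted p = 0.0932). The mean of its probe sets was 0.31 and not called (adjusted p = 0.0925). These were 2 higher and 0 lower of 15 engulfment genes, with a median of 0.13. Cd5l, a secreted macrophage protein that limits cell death and was named after its values were seen, read 9.52, 10.51 and 9.97, then 10.59, 11.61 and 11.17. It rose by 1.12 ± 0.10 (adjusted p = 0.00313), and the highest 24 h value, 10.51, lay just below the lowest at 48 h, 10.59.

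Among growth factors and proteases, 4 of 25 genes rose and 2 fell, with a median of 0.00. Mmp12, the macrophage elastase, rose from 10.56, 10.11 and 10.54 to 11.45, 11.47 and 11.40, by 1.04 ± 0.13 (adjusted p = 0.00949), and the 48 h arrays lay close together. Mmp14, a membrane collagenase, rose by 0.72 ± 0.11 and Vegfb by 0.95 ± 0.18 (SE, n = 3 pairs; adjusted p = 0.0185 and 0.031), while Inhba, which encodes the subunits of activin A, fell by 0.77 ± 0.12 (adjusted p = 0.0186). Without experiment 3 all 3 missed the threshold, at 0.64, 0.70 and -0.83 (adjusted p = 0.0751, 0.0845 and 0.0577). Vegfb also missed it without experiment 2 (0.96, adjusted p = 0.0962), and Inhba with the mean of its probe sets (-0.33, adjusted p = 0.0951). Igf1 rose by 0.60 ± 0.10 (adjusted p = 0.0227) and missed it without experiment 2 or 3 (0.53 and 0.60, adjusted p = 0.0979 and 0.0851). In the list of Trem2 and lipid-associated macrophage genes, Igf1 and Itgax (CD11c) were the 2 that rose of 16, with 0 lower, a median of 0.21 and positive differences for all 16. Vegfa gave -0.29 (adjusted p = 0.135).

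Other leading rises were spread over unlike functions. Ptprz1, a receptor tyrosine phosphatase, was above the filter level on 1 of 3 arrays at 24 h and on 3 of 3 at 48 h, and rose by 1.76 ± 0.16 (adjusted p = 0.00384). Cdkn1c, the cell-cycle inhibitor p57, read 3.03, 2.86 and 2.76, then 3.52, 5.22 and 4.22, a rise of 1.44 ± 0.31 (adjusted p = 0.0444). Its rise was 0.97 without experiment 2 (adjusted p = 0.0915) and 1.42 without experiment 3 (adjusted p = 0.152), so this call rests on experiments 2 and 3. Col2a1, the cartilage collagen, rose by 1.22 ± 0.24 (adjusted p = 0.0351). S100a1, a calcium-binding protein, rose by 1.22 ± 0.14 and Klra9, a C-type lectin-like receptor of natural killer cells, by 1.20 ± 0.10 (adjusted p = 0.0086 and 0.00313). Aldh1l2, the mitochondrial formyltetrahydrofolate dehydrogenase, rose by 1.33 ± 0.15 from levels of 2.73 to 3.30 (adjusted p = 0.00696). Lrrc27 and C77080, whose roles are not described here, rose by 1.37 ± 0.11 and 1.35 ± 0.13, and the histone gene H4bc24 by 1.17 ± 0.10 (adjusted p = 0.00313, 0.00439 and 0.00313).

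Genes of blood monocytes fell together. Ccr2, the receptor that brings monocytes out of the marrow, read 6.77, 7.21 and 7.62 at 24 h and 3.56, 5.49 and 5.62 at 48 h. It fell by 2.31 ± 0.26 (SE, n = 3 pairs; adjusted p = 0.00788), with no overlap and the lowest 48 h value in experiment 1. Vcan, a large matrix proteoglycan of monocytes, fell by 2.05 ± 0.23, from 6.16, 6.29 and 7.16 to 3.32, 4.72 and 5.42 (adjusted p = 0.00792). With the mean of all probe sets the differences were -1.50 for Ccr2 and -0.76 for Vcan (adjusted p = 0.00425 and 0.0196). Plac8, a small cysteine-rich protein of monocytes and granulocytes, fell by 1.85 ± 0.11, from 9.65, 10.22 and 10.43 to 7.60, 8.58 and 8.57 (adjusted p = 0.00141). F13a1, the coagulation factor XIII A chain, fell by 1.34 ± 0.14 (adjusted p = 0.00584). In all, 8 of 11 monocyte genes fell and 0 rose, against 3.29% of all genes lower, with a median of -0.97. The mean of the list was 9.48 to 9.89 at 24 h and 8.16 to 8.86 at 48 h. Leaving out experiment 1, 2 or 3 left 8, 8 and 7 of them called.

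Genes of primary granules, which promyelocytes and early monocyte precursors fill with serine proteases, fell as well. Prtn3, proteinase 3, read 7.39, 8.11 and 7.19 at 24 h and 4.93, 5.83 and 5.27 at 48 h. It fell by 2.22 ± 0.13 (SE, n = 3 pairs; adjusted p = 0.00126). Ms4a3, a membrane protein of granulocyte and monocyte progenitors, fell by 2.12 ± 0.12, from 6.00, 7.23 and 6.26 to 4.08, 4.82 and 4.23, and Ctsg, cathepsin G, fell by 1.94 ± 0.10 (adjusted p = 0.00126 for both). Fcnb, a ficolin of these granules, fell by 1.54 ± 0.12 (adjusted p = 0.00313). For these 4 genes no 48 h array reached the lowest 24 h value. Of 11 genes, 8 fell and 0 rose, with a median of -1.01, and list means ran from 6.66 to 7.30 and then from 5.48 to 6.09. Without experiment 1, 2 or 3, 8, 6 and 5 were called.

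Genes of later neutrophil stages gave fewer calls. Of 16, 5 fell and 0 rose, with a median of -0.19, and list means of 10.23 to 10.80 and 9.86 to 10.59 overlapped. Camp, the cathelicidin of secondary granules, stayed very high, at 12.33, 12.77 and 12.44, then 11.41, 12.33 and 11.64. It fell by 0.72 ± 0.12 (adjusted p = 0.0223), as Cd177 did by 0.69 ± 0.11 and Olfm4 by 0.64 ± 0.12 (SE, n = 3 pairs; adjusted p = 0.019 and 0.026), with overlapping levels for all 3. Camp and Olfm4 missed the threshold without experiment 3 (-0.68 and -0.55, adjusted p = 0.0932 and 0.0987), and Cd177 without experiment 2 (-0.61, adjusted p = 0.079). Ltb4r1, a leukotriene B4 receptor, fell by 1.40 ± 0.23 (adjusted p = 0.0221). Chil1, a chitinase-like protein of neutrophils and macrophages, gave -0.06 (adjusted p = 0.816).

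Haemoglobin alpha was among the largest falls. Hba-a1 read 8.91, 9.09 and 8.85 at 24 h and 6.16, 6.69 and 6.01 at 48 h. It fell by 2.66 ± 0.12 (SE, n = 3 pairs; adjusted p = 0.00126), with the experiments close together at both times. Near-identical alpha globin copies may share its probes. Of 12 erythroid and megakaryocyte genes tested, 4 fell and 0 rose, with a median of -0.33. The platelet genes Clec1b, Gp9 and Itga2b fell by 1.14 ± 0.23, 0.66 ± 0.13 and 0.54 ± 0.12 (adjusted p = 0.0352, 0.0321 and 0.0487), and all 3 missed the threshold without experiment 2 or without experiment 3, Itga2b also without experiment 1 (-0.42, adjusted p = 0.151). Their adjusted p-values were 0.0714, 0.107 and 0.0752 without experiment 2, at -1.29, -0.51 and -0.66, and 0.064, 0.0932 and 0.135 without experiment 3, at -1.36, -0.71 and -0.56. Slc13a3, a dicarboxylate transporter, fell by 2.65 ± 0.16, from 6.94, 7.94 and 5.97 to 3.97, 5.14 and 3.81 (adjusted p = 0.00141). Igkj1, an immunoglobulin light chain segment of B cells, fell by 2.19 ± 0.15, from 5.74, 6.91 and 7.03 to 3.13, 4.84 and 5.13 (adjusted p = 0.00186).

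Mitotic genes fell as a body. Mki67, the Ki-67 proliferation marker, read 8.32, 8.87 and 8.26 at 24 h and 6.83, 7.40 and 6.53 at 48 h. It fell by 1.56 ± 0.10 (SE, n = 3 pairs; adjusted p = 0.00174), with no overlap. Experiment 2 was highest at both times. Of 31 mitosis genes 26 fell and 0 rose, against 3.29% of all genes lower, and all 31 differences were negative, with a median of -0.999. For 25 of them the groups did not overlap, against 8.74% of all genes wholly lower. Nusap1, a spindle protein, fell by 1.45 ± 0.10, Ccna2, cyclin A2, by 1.37 ± 0.10, and Ccnb2, cyclin B2, by 1.33 ± 0.10 (adjusted p = 0.00174, 0.00313 and 0.00313). Further members named after their values were seen were Ube2c, a ubiquitin-conjugating enzyme of the anaphase-promoting complex, which fell by 1.32 ± 0.12, and Bub1, Birc5, Plk1 and Top2a, which fell by 1.26, 1.22, 1.20 and 1.19. With the mean of all probe sets Nusap1, Bub1 and Top2a gave -0.82, -0.73 and -0.58 (adjusted p = 0.00673, 0.00919 and 0.0166). Cdk1, the mitotic kinase, fell by less, from 7.78, 8.43 and 7.81 to 7.40, 7.28 and 7.18, a difference of -0.71 ± 0.16 (adjusted p = 0.046). It was not called without experiment 2 (-0.50, adjusted p = 0.128) or experiment 3 (-0.76, adjusted p = 0.127). Over the list 27, 19 and 20 of 31 genes were called without experiment 1, 2 and 3, and 4 with all 12 arrays in a model without the block.

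DNA replication genes gave fewer calls. Rrm2, the S-phase subunit of ribonucleotide reductase, read 6.78, 8.07 and 7.06, then 5.08, 6.04 and 5.02, and fell by 1.93 ± 0.11 (SE, n = 3 pairs; adjusted p = 0.00126). Its partner Rrm1 fell by 0.75 ± 0.12 (adjusted p = 0.0182; -0.75 and 0.0688 without experiment 2), Dut, which removes dUTP, by 0.83 ± 0.10, and Cdc45, a part of the replicative helicase, by 0.80 ± 0.09 (adjusted p = 0.00803 and 0.0086). The mean of the Dut probe sets was -0.46 (adjusted p = 0.0317). Of 33 genes 5 fell and 0 rose, with a median of -0.36 and 30 negative differences, and 11, 3 and 6 were called without experiment 1, 2 and 3. Pcna, the sliding clamp, gave -0.03 (adjusted p = 0.897) and Mcm5, of the helicase ring, -0.53 (adjusted p = 0.258). Among 16 cell-cycle inhibitors and D cyclins, Cdkn1c rose, and Cdkn2c (p18) and Rbl1 (p107) fell by 0.59 ± 0.11 and 0.53 ± 0.11 (adjusted p = 0.0332 and 0.0441). Both of these were lost without experiment 2 (-0.47 and -0.42, adjusted p = 0.125 and 0.164) and without experiment 3 (-0.63 and -0.53, adjusted p = 0.091 and 0.132), and Rbl1 with the mean of its probe sets (-0.34, adjusted p = 0.0783).

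Promoters of mitotic genes share the CHR element, bound by the DREAM and MuvB complexes, next to CCAAT boxes bound by NF-Y. The 150 bases before the start are shown for called genes that hold both, with the CHR (TTTGAA or TTCGAA) and CCAAT in capitals, on either strand. The Cdk1 stretch is chr10:69352913-69353062 (minus strand), the Top2a stretch chr11:99024190-99024339 (minus strand) and the Ube2c stretch chr2:164769779-164769928 (plus strand). In the 300-base window 21 of 26 mitosis promoters (80.8%) held a CHR and 19 (73.1%) a CCAAT, against 16.4% and 42.7% of all 9516. For the DNA replication genes the shares were 22.2% and 55.6% of 27. The E2F core (GCGCGAAA or GCGGGAAA) was in 37.0% of these 27 promoters, in 3.85% of the mitosis promoters and in 2.95% of all.
Cdk1: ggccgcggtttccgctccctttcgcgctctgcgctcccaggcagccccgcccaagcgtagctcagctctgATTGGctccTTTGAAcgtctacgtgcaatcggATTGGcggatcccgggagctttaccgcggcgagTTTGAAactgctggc
Top2a: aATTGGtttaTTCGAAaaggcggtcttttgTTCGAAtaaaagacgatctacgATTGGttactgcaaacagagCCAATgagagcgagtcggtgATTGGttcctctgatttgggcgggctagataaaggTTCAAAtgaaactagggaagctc
Ube2c: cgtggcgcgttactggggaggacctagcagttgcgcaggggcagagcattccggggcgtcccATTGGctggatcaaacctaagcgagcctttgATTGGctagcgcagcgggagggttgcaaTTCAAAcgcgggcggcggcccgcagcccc

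Interferon-stimulated genes fell, from levels that differed between experiments. Cxcl10, the chemokine that draws T cells through CXCR3, read 8.32, 8.58 and 8.99 at 24 h and 6.15, 6.20 and 7.11 at 48 h. It fell by 2.15 ± 0.12 with no overlap (SE, n = 3 pairs; adjusted p = 0.00126). Mx1, an antiviral GTPase, read 7.27, 6.18 and 8.81, then 6.09, 5.44 and 7.25, and fell by 1.16 ± 0.16 (adjusted p = 0.0125). Its groups overlapped, with experiment 3 highest and experiment 2 lowest at both times. The same order held for Ifit2 and Ifit1, RNA-binding antiviral proteins, which fell by 0.91 ± 0.12 and 0.87 ± 0.10 (adjusted p = 0.0112 and 0.00792). It also held for Gbp2, a guanylate-binding protein, which fell by 1.12 ± 0.19 (adjusted p = 0.0223) but was not called without experiment 3 (-1.02, adjusted p = 0.0988). Of 24 interferon-stimulated genes 12 fell and 0 rose, against 3.29% of all genes lower, with a median of -0.59 and 23 negative differences. Levels did not overlap for 1 of the 24, wholly lower at 48 h, against 8.74% of all genes. The mean of the list ran from 6.93 in experiment 2 to 8.44 in experiment 3 at 24 h and from 6.46 to 7.68 in the same experiments at 48 h. The calls depend on the pairing: 1, Cxcl10, was called with all 12 arrays and no block. Without experiment 1, 2 and 3, 10, 9 and 4 of the 24 were called, where over all genes 600, 259 and 245 were.

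Interferon-stimulated promoters carry the ISRE, bound by ISGF3 and IRF proteins. The stretches for Ifit1, chr19:34640739-34640888 (plus strand), and Gbp2, chr3:142620513-142620662 (plus strand), show its core, GAAANN followed by GAAA, in capitals, here on the opposite strand. It was in 11 of 17 promoters of the list (64.7%), in 3.68% of all and in 10.0% of 309 promoters of genes called lower.
Ifit1: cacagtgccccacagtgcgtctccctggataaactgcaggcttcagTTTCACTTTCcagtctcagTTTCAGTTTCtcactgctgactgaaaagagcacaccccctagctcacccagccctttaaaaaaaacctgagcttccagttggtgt
Gbp2: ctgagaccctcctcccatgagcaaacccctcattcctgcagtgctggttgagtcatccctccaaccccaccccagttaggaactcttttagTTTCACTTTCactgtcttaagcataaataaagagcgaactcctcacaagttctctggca

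Inflammatory cytokines fell in the same period. Il6 had the largest fall of all genes tested, from 6.66, 6.88 and 7.05 at 24 h to 3.37, 4.11 and 4.59 at 48 h, by 2.84 ± 0.16 or 7.16-fold (SE, n = 3 pairs; adjusted p = 0.00126). Il10, an inhibitory cytokine, fell by 1.22 ± 0.12 from 9.20, 9.12 and 9.45 to 7.72, 8.14 and 8.27 (adjusted p = 0.00498), and Lif, a cytokine of the same receptor family as Il6, by 0.93 ± 0.11 (adjusted p = 0.00994; -0.39 and 0.0451 with the mean of its probe sets). Il1b fell by 0.67 ± 0.12, Il1a by 0.68 ± 0.13 and Ptgs2, the inducible cyclooxygenase, by 0.69 ± 0.12 (adjusted p = 0.0248, 0.0337 and 0.0223). These last 3 were lost without experiment 1 (-0.56, -0.53 and -0.56, adjusted p = 0.0572, 0.0732 and 0.0504) and without experiment 3 (-0.67, -0.67 and -0.74, adjusted p = 0.0931, 0.117 and 0.0732), and Ptgs2 also without experiment 2 (-0.78, adjusted p = 0.0561). In all, 8 of 14 fell and 0 rose, with a median of -0.56, and 4, 5 and 3 were called without experiment 1, 2 and 3. Tnf was high at both times, at 10.50, 10.42 and 10.48, then 10.32, 9.86 and 10.27, and its difference of -0.32 ± 0.11 was not called (adjusted p = 0.161; 0.0296 with an intensity trend).

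Chemokines, NF-kB feedback genes and immediate-early genes gave fewer calls, all of them lower. Of 22 chemokines 5 fell, with a median of -0.32. Besides Cxcl10 these were Ccl2 and Ccl7, ligands of CCR2, by 0.76 ± 0.11 and 0.79 ± 0.12, Ccl5 by 0.90 ± 0.13 and Ccl8 by 0.78 ± 0.10 (SE, n = 3 pairs; adjusted p = 0.0136, 0.0179, 0.0146 and 0.0114). Ccl2 and Ccl7 missed the threshold without experiment 3 (-0.66 and -0.67, adjusted p = 0.0556 and 0.0679). Of 18 NF-kB feedback genes 4 fell, with a median of -0.19, led by Traf1, an adaptor of TNF receptors, by 0.97 ± 0.10, and Tnfaip3 (A20), the deubiquitinase that limits NF-kB, by 0.75 ± 0.10 (adjusted p = 0.00574 and 0.0111; for Tnfaip3 -0.72 and 0.0511 without experiment 2). Of 21 immediate-early genes 3 fell, with a median of -0.30 and 10 wholly lower at 48 h, against 8.74% of all genes. Nr4a2, an orphan nuclear receptor, fell by 1.35 ± 0.12 from 7.75, 8.10 and 8.07 to 6.26, 6.60 and 7.02 (adjusted p = 0.0039). Its relative Nr4a3 and the activation marker Cd69, both named after their values were seen, fell by 1.52 ± 0.14 and 1.56 ± 0.12 (adjusted p = 0.00384 and 0.00313). With the mean of all probe sets Nr4a2 gave -0.76 and Nr4a3 -0.51 (adjusted p = 0.012 and 0.0298).

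**Figure D4:**
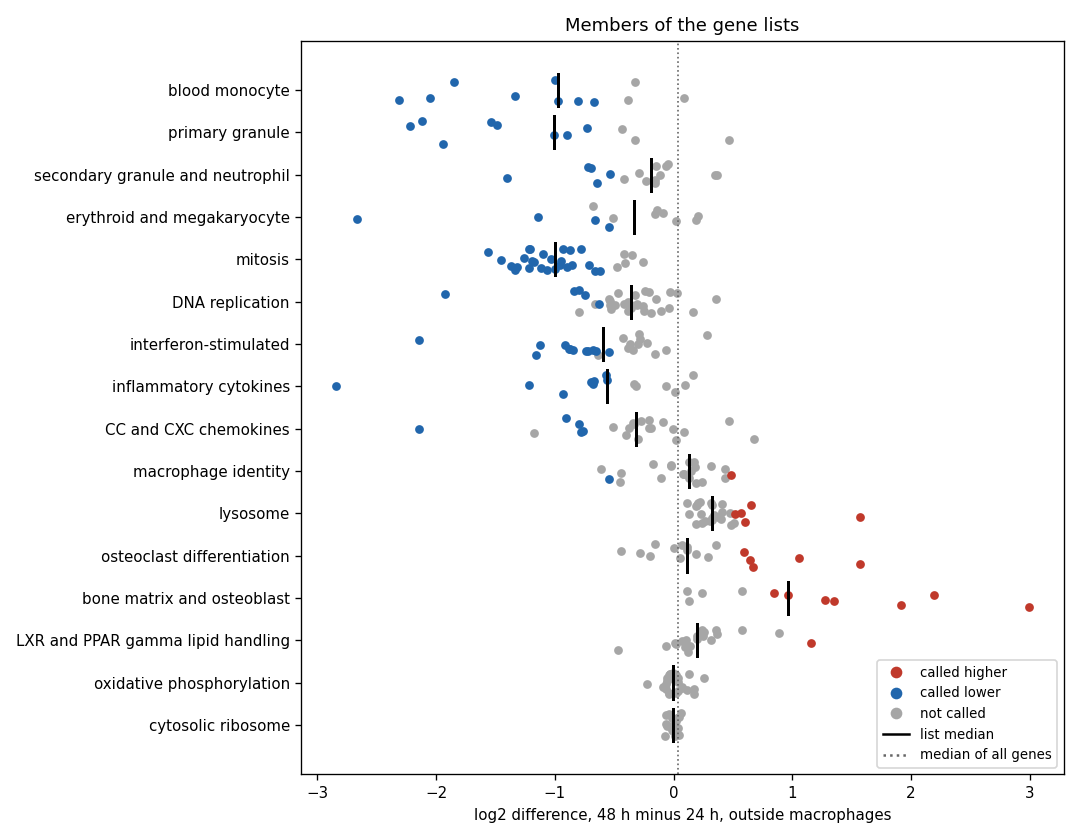
Log2 difference between 48 h and 24 h of each tested member of 16 gene lists in outside macrophages. Red, blue and grey points are members called higher, called lower and not called, the black bar is the list's median and the dotted line the median of all genes, 0.04. Monocyte, primary granule and mitosis medians lie between -1.01 and -0.97, the bone matrix median at 0.96, and the ribosome and oxidative phosphorylation members lie around 0.

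Macrophage identity genes gave few calls. Of 21, 1 rose and 1 fell, with a median of 0.13. Csf1r read 9.92, 9.37 and 9.54, then 9.97, 9.54 and 9.85, and Adgre1 11.23, 11.04 and 11.18, then 11.28, 11.17 and 11.39, with differences of 0.18 ± 0.10 and 0.13 ± 0.10 (adjusted p = 0.337 and 0.456). Itgam gave -0.17 ± 0.13 (adjusted p = 0.46). Cd68, an endosomal glycoprotein of macrophages, rose by 0.49 ± 0.09 and Aif1 (Iba1) fell by 0.54 ± 0.10 (adjusted p = 0.0333 and 0.026). Neither was called without experiment 1, 2 or 3, where the adjusted p-values were 0.0914, 0.126 and 0.0931 for Cd68, at 0.48, 0.47 and 0.51, and 0.0784, 0.0809 and 0.0887 for Aif1, at -0.50, -0.58 and -0.54.

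Surface receptors changed one by one. Mrc1, the mannose receptor CD206, rose from 8.45, 7.29 and 8.33 to 9.20, 8.52 and 9.25, by 0.97 ± 0.12 (SE, n = 3 pairs; adjusted p = 0.0101). Of 17 scavenger and lectin receptors it was the 1 that rose, while 6 fell, with a median of -0.16 that became 0.12 under a stricter filter on dim genes. Olr1, a receptor for oxidised LDL, fell by 1.82 ± 0.19 from 6.10, 6.58 and 5.88 to 3.69, 5.21 and 4.20 (adjusted p = 0.00584). Marco, a bacteria-binding scavenger receptor, fell by 1.58 ± 0.31 from 10.52, 9.77 and 10.11 to 9.48, 8.74 and 7.42 (adjusted p = 0.0352). The fall in experiment 3 was the deepest: without that experiment it was 1.03 and still called, and without experiment 2 it was 1.87 with an adjusted p of 0.0567. The galactose lectin Clec10a fell by 1.03 ± 0.19 (adjusted p = 0.031; 0.118 without experiment 3). Its neighbour Mgl2 was above the filter level on all 24 h arrays and on 0 of 3 at 48 h, a fall of at least 0.83 on the log2 scale (adjusted p = 0.0148 in the fit; 0.0504 and 0.068 without experiments 2 and 3). The 2 genes are similar in sequence, and their probes may not separate them.

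Of 17 interleukin-4 response genes, which mark alternative activation, 1 rose, Mrc1, and 3 fell, Mgl2, Clec10a and Chil4, a chitinase-like protein. The median was -0.24, and 14 differences were negative. At 48 h 4 genes lay wholly lower and 2 wholly higher, against 8.74% and 13.9% of all genes. Chil4 fell by 0.56 ± 0.10 (adjusted p = 0.0281) and was not called without experiment 1, 2 or 3 (-0.49, -0.64 and -0.56, adjusted p = 0.0865, 0.0692 and 0.0971), nor with the mean of its probe sets (-0.43, adjusted p = 0.0669). Arg1, arginase 1, varied widely between experiments, at 10.25, 7.83 and 7.15, then 8.56, 9.53 and 5.27, with falls in experiments 1 and 3 and a rise in experiment 2. Its difference of -0.62 ± 0.64 was not called (adjusted p = 0.611), but without experiment 2 it was -1.78 and called (adjusted p = 0.00735). Nos2, inducible nitric oxide synthase, did not pass the filter, at 2.68, 3.03 and 2.76, then 2.79, 2.35 and 2.71. Cd274, the checkpoint ligand PD-L1, gave 0.10 ± 0.13 (adjusted p = 0.703).

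Antigen presentation and innate receptor genes gave few calls. Of 15 MHC class II presentation genes 3 fell, the costimulatory genes Cd40, Cd86 and Cd80, by 0.65 ± 0.13, 0.63 ± 0.13 and 0.47 ± 0.10 (adjusted p = 0.0384, 0.0377 and 0.0386), with a list median of -0.35 and 11 negative differences. Without experiment 1, 2 and 3, 0, 1 and 0 of the list were called, with adjusted p-values up to 0.149 for these genes, and Cd80 was not called with the mean of its probe sets (-0.29, adjusted p = 0.0968). Of 19 Fc and Toll-like receptors Tlr2 fell by 0.57 ± 0.10 (adjusted p = 0.0242) and 0 rose, with a median of -0.12 and 11 negative differences, and Tlr2 was lost without any 1 experiment (adjusted p = 0.0669, 0.0979 and 0.0613). Among 13 complement genes Cfb, factor B, fell by 0.98 ± 0.13 (adjusted p = 0.0125). In that list and among 14 integrins Itgax rose, from 3.82, 3.33 and 3.41 to 4.52, 4.70 and 4.03, by 0.90 ± 0.16 (adjusted p = 0.026), and Itgb7 fell by 0.86 ± 0.11 (adjusted p = 0.0112). Itgax was not called without experiment 2 or 3 (0.66 and 1.03, adjusted p = 0.0591 and 0.0581).

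Stress and metabolic programmes gave 1 to 3 calls each, where 6.02% of all genes were called. A list of this size with 1 call lies near that share. Nqo1, an NRF2 target that reduces quinones, fell by 1.32 ± 0.11, from 7.59, 7.60 and 7.26 to 6.05, 6.33 and 6.10 (SE, n = 3 pairs; adjusted p = 0.00313), the 1 call of 22 NRF2 targets. Hmox1 gave -0.17 (adjusted p = 0.362). Pmaip1 (NOXA) fell by 0.78 ± 0.10 (adjusted p = 0.0106), the 1 call of 20 p53 targets and BCL2 family genes. Hspa1b, the inducible HSP70, fell by 0.90 ± 0.12 (adjusted p = 0.013; -0.87 and 0.0613 without experiment 3), alone of 11 heat-shock chaperones. Of these 4 lay wholly lower and 1 wholly higher at 48 h, against 8.74% and 13.9% of all genes. The list means of 8.32 to 8.46 and 8.25 to 8.27 did not overlap. Aldoc rose by 0.87 ± 0.13, alone of 16 glycolysis genes, and Tfrc, the transferrin receptor, by 0.52 ± 0.09, alone of 14 iron transport genes (adjusted p = 0.0161 and 0.0263). Aldoc was lost without experiment 2 (0.73, adjusted p = 0.0591) and Tfrc without any 1 experiment (0.55, 0.52 and 0.51, adjusted p = 0.0572, 0.0995 and 0.0933). With the mean of their probe sets Aldoc gave 0.51 and Tfrc 0.36, and Tfrc was not called (adjusted p = 0.0339 and 0.0678). The amino acid response had 17 positive differences of 21, and its list means of 5.39 to 5.61 and 5.66 to 5.76 did not overlap. It gave 3 rises and 0 falls, with Aldh1l2, Atf5 by 0.64 ± 0.10 and Ddit3 by 0.45 ± 0.09 (adjusted p = 0.02 and 0.0426), the last 2 lost without experiment 2 or 3 (adjusted p = 0.0819 to 0.151 and 0.0807 to 0.102), and Ddit3 also without experiment 1 (0.44, adjusted p = 0.128). Of 22 hypoxia genes only Ero1a was called, by 0.43 ± 0.10 lower (adjusted p = 0.0499; 0.118 to 0.159 without 1 experiment), with a list median of -0.11.

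Some programmes had no call in the paired limma test. These were cholesterol synthesis (19 tested), the unfolded protein response (18), aminoacyl-tRNA synthetases (17), MAPK and cytokine feedback (18), oxidative phosphorylation (25), the mitochondrial ribosome (21), the cytosolic ribosome (18), ribosome biogenesis (19) and the proteasome (24). At an unadjusted p under 0.05 they had 1, 6, 4, 4, 1, 0, 0, 2 and 2 genes, and with an intensity trend in the variance model 0, 5, 2, 1, 1, 0, 0, 0 and 1 genes were called. Their medians ran from -0.16 for the unfolded protein response to 0.09 for cholesterol synthesis and aminoacyl-tRNA synthetases. In the proteasome 18 of 24 differences were negative, 10 genes lay wholly lower at 48 h and 1 wholly higher, and in the unfolded protein response 13 of 18 were negative, 6 lay wholly lower and 2 wholly higher, against 8.74% and 13.9% of all genes. The list means did not overlap in either, at 9.45 to 9.48 and 9.37 to 9.43 for the proteasome and 8.39 to 8.52 and 8.31 to 8.35 for the unfolded protein response, so the lack of calls does not show that these genes were unchanged. Member differences lay close to 0 in the cytosolic ribosome, between -0.07 and 0.06.

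Markers of other cells that such a culture could hold were also read. The neuroblastoma and neuronal list had a mean log2 value of 3.33 to 3.49 at 24 h and 3.18 to 3.35 at 48 h over the 10 of its 20 measured genes that passed the filter. Of its members Th, tyrosine hydroxylase, and Phox2a, a noradrenergic transcription factor, lay between 2.77 and 3.15 on every outside array. Whether the TT9423 line expresses them was not tested. Differences over the list ran from -0.80 to 0.58, with 4 positive and 6 negative. Of the 10, 1 fell, Ncam1, by 0.80 ± 0.13 (adjusted p = 0.0201), and 0 rose. Ncam1 was not called without experiment 2 or 3 (-0.83 and -0.64, adjusted p = 0.0655 and 0.0647) or with the mean of its probe sets (-0.31, adjusted p = 0.0891). The lymphocyte list, with 5 of 10 measured genes above the filter, had 2 that fell, both of B cells: Ms4a1 (CD20) by 1.37 ± 0.27 and Cd79b by 0.84 ± 0.14 (adjusted p = 0.0361 and 0.0205). Without experiment 3 neither was called (-1.24 and -0.83, adjusted p = 0.146 and 0.0845), nor was Ms4a1 without experiment 2 (-1.04, adjusted p = 0.108). Of 8 endothelial genes Emcn fell by 1.42 ± 0.11 (adjusted p = 0.00313), and the list means of 4.07 to 4.40 and 3.73 to 3.91 did not overlap. Of 7 mast cell and basophil genes Hdc, histidine decarboxylase, fell by 0.75 ± 0.13 (adjusted p = 0.0228; -0.79 and 0.0732 without experiment 2). In the dendritic cell list Itgax rose and Clec10a fell, of 8 genes. The part of these cells in the falls of monocyte, granule and mitosis genes was not tested.

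Macrophages inside the spheres were read over the same hours, which allows the change outside to be set against theirs. The test of the difference between the 2 changes, over all 12 arrays with the experiment as a block in each location, called 90 of 11787 genes (0.764%). For 21 of them (0.178%) the change was higher outside and for 69 (0.585%) lower. Of the 69, 64 were also called lower outside, and of the 21, 18 were called higher outside. In-sphere arrays alone, by the same paired fit, gave 0 genes higher and 1 lower, Slc13a3, with 893 at an unadjusted p under 0.05, so fewer calls there do not by themselves show a smaller change. The 48 h in-sphere array of experiment 3 stands apart, at a mean of 4.06 on the log2 scale where the others lie at 4.20 to 4.22. Without the in-sphere pair of experiment 3 the counts were 22 and 85, a setting chosen after the data were seen. Without experiment 1, 2 or 3 in both locations 0 genes passed in limma, with 1613, 1223 and 1336 at an unadjusted p under 0.05, and in the model without the block 0 passed, with 1480 at that level. The calls of the differences named next were made with all 3 outside experiments and with the block. Fewer experiments also leave fewer degrees of freedom, so the loss of calls does not show that a difference depends on any 1 experiment.

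Mitotic genes differed between the locations. Of the 69 genes whose change was lower outside, 22 were mitosis genes, of 31 tested, and 1 was the DNA replication gene Rrm2. The median change of the mitosis list was -0.999 outside and 0.45 inside. Mki67 fell by 1.56 outside and changed by 0.44 inside, a difference of -2.00 (limma, adjusted p = 0.00847). For Ube2c the changes were -1.32 and 0.89 (adjusted p of the difference 0.0125). Monocyte genes had a median change of -0.97 outside and -0.14 inside, and for 3 of 11 the difference was called, among them Ccr2 (-2.31 outside, 0.26 inside, adjusted p = 0.0366) and Plac8 (-1.85 and 0.08, adjusted p = 0.0116). Bone matrix genes had medians of 0.96 and -0.06, and 3 of 11 differences were called. Dmp1 rose by 2.99 outside and gave -0.12 inside, where its mean was 3.10 at 24 h and 2.98 at 48 h (adjusted p = 0.00847). For Ibsp the changes were 2.20 and 0.08 and for Phex 1.92 and -0.79 (adjusted p of the difference 0.0133 and 0.0285). Phex was below the filter level on every outside 24 h array, so its outside value is that of the fit and only a bound holds.

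For other groups few differences were called. Primary granule genes had medians of -1.01 outside and -0.92 inside, with 1 of 11 differences called, Prtn3 (adjusted p = 0.0379). Interferon-stimulated genes had medians of -0.59 and -0.44, with 1 of 24 called, Cxcl10, which gave -0.02 inside (adjusted p = 0.0199). Slc13a3 fell by 2.65 outside and gave -2.85 inside (adjusted p of the difference 0.792), Mrc1 gave 0.97 and 0.93 (adjusted p = 0.956), and Nqo1 -1.32 and -1.26 (adjusted p = 0.908). A p that misses the threshold does not show that these changes were equal.

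**Figure D5:**
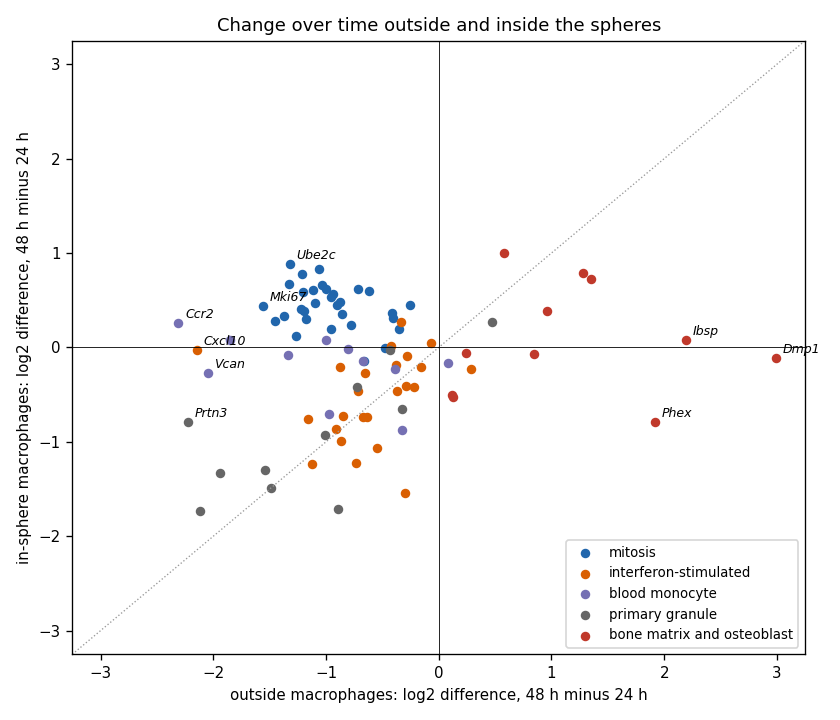
Log2 difference between 48 h and 24 h of list members in outside macrophages (x axis) and in-sphere macrophages (y axis), with the line of equal change dotted. Mitosis genes (blue) lie at negative x and mostly positive y, with medians of -0.999 and 0.45. Bone matrix genes (red) reach far to the right, with Dmp1 and Ibsp near y of 0 and Phex below it. Interferon-stimulated and primary granule genes lie nearer the dotted line.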

How the data were processed

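RNA of 12 samples in 4 groups of 3 was hybridised to Affymetrix mouse arrays, and the 6 arrays of outside macrophages were compared here. Per the submitters' processing notes, the authors used RMA in Affymetrix Expression Console 1.1, and they deposited 1 log2 value per probe set and array. RMA corrects background, quantile-normalizes the arrays together and compresses differences of dim probe sets. The log base was read from the range of the values, 1.52 to 13.8. Per the labels' protocols, labelled cRNA was made by 3' in vitro transcription. Precision is limited by the number of arrays. Scanner files were not used here.

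Of 45141 probe sets, 28898 had 1 symbol, 551 several and 15692 were not named. The 17097 genes so named were each read from their brightest probe set over the 12 arrays. Genes above 2.77, the 40th percentile, on at least 3 of the 6 outside arrays were tested (11787). The fit used limma 3.58.1 in R 4.3.3 (lmFit and eBayes) with the replicate number as a block, 2 residual and 4.80 prior degrees of freedom, and Benjamini-Hochberg adjusted p-values over all genes tested at a threshold of 0.05. Errors are standard errors of that fit. It was tested on simulated data. A gene at or below 2.77 on all arrays of a group has a bound only.

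The numbers come from the labels, which say each is an independent experiment. Deviations from the group means correlated at 0.485, 0.484 and 0.420 between the 24 h and 48 h arrays of the same number. Between different numbers they correlated at -0.14 to -0.28. These negative values follow from subtracting the group means and add no support of their own. Equal numbers were treated as pairs. The difference between the outside and in-sphere changes was tested over all 12 arrays with the block within each location.

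The comparison, the 50 gene lists and the tests were chosen with earlier results of these data known. The lists held 953 genes, 850 of them with a probe set for that gene alone and 793 past the filter. Named genes are the 15 called genes per direction with the largest difference (passing over uncharacterised gene models), up to 4 called members per list (or 2 of a list without calls), and some genes fixed by name. Named after their values were seen were Acp5, Bglap, Birc5, Bub1, Cd5l, Cd69, Cdk1, Cipc, Cln3, Ctsk, Fam20c, Gfi1, H2bc21, H3c7, H3c14, Ifit1, Iigp1, Il1a, Mcm5, Mitf, Mmp14, Myb, Nfatc1, Nfil3, Nr4a3, Pcna, Pdgfra, Pdgfrb, Per2, Phox2a, Plk1, Plxna1, Plxna2, Ptgs2, Sp7, Sparc, Th, Top2a and Ube2c. Promoter sequences are from RefSeq. Alternatives covered the block, the arrays fitted, the filter, centring, a second quantile normalization, an intensity trend, array weights, the mean over probe sets and leaving out each experiment.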

Additional observations from a re-analysis of the deposited data

Results flagged for a closer look

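For 29 genes named in the text or here the change from 24 h to 48 h differed between outside and in-sphere macrophages (limma, adjusted p under 0.05 over all 12 arrays, experiment as a block). None of these calls held when any 1 experiment was left out in both locations or when the block was left out, and their cause was not tested. Values are the outside change minus the in-sphere change on the log2 scale. It was higher outside for the bone matrix genes Dmp1 (3.11), Phex (2.70) and Ibsp (2.11), and for Aldh1l2 (1.92), C77080 (1.503), Atp6v0d2 (1.38), Klra9 (1.34) and Mmp14 (1.30). The Phex value is that of the fit, with every outside 24 h array below the filter level.

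It was lower outside for the cell division genes Ube2c (-2.21), Rrm2 (-2.07), Ccnb2 (-2.00), Mki67 (-2.00), Birc5 (-2.00), Plk1 (-1.79), Nusap1 (-1.72), Ccna2 (-1.70), Top2a (-1.58), Bub1 (-1.38) and Cdk1 (-1.33). For the cell-cycle inhibitor Cdkn2c (-1.36) it was lower outside too. The monocyte and granule genes Ccr2 (-2.57), Plac8 (-1.93), Prtn3 (-1.43) and F13a1 (-1.26) followed. The remaining genes were Cxcl10 (-2.12), Cd69 (-1.97), Nr4a2 (-1.86), Emcn (-1.60) and Il10 (-1.22).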

How the results depend on the processing

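The pairing matters most. Against 321 genes higher and 388 lower, the fit of the 6 outside arrays with no replicate block called 0 and 1, all 12 arrays as group means without the block 14 and 28, and all 12 with the block within location 89 and 160. An intensity trend gave 649 and 633. Leaving out each experiment gave 71 to 268 higher and 174 to 332 lower. The other alternatives stayed within 1.5 times both counts. Among calls with a log2 difference of at least 1 (28 and 89), the 2 fits without the block gave 0 and 1, and 9 and 22, and leaving out each experiment gave 29 to 38 and 86 to 103. All main calls that an alternative tested kept their direction.

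The calls of a difference from the in-sphere change (21 higher, 69 lower) were fewer or more numerous under most alternatives: 0 and 0 without the block, 0 and 0 without each experiment, 22 and 85 without the in-sphere pair of experiment 3 (so 0 to 22 and 0 to 85 over the fits that leave samples out), 49 and 227 with arrays centred on their median, 78 and 169 with an intensity trend, 354 and 300 with array weights, 50 higher under a stricter filter and 41 higher with the mean of all probe sets.

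Of the named genes, those that changed sign were not called in the main fit: Mrpl9 with the mean of its probe sets (-0.056), and over the fits that leave out 1 experiment, Mrps5 (-0.28 to 0.0012), Arg1 (-1.78 to 0.0039), Cd274 (-0.061 to 0.21) and Chil1 (-0.23 to 0.043). Of 162 named genes 134 were called, and 19, 44 and 55 lost their call without experiment 1, 2 and 3, 133 without the block and 12 with the mean of all probe sets. Of the list medians under alternatives, 657 moved by less than the spread between experiments and 43 by more. The causes were not tested. Dim probe sets near the filter level give bounds only, which touched 8 called genes. With 3 pairs, small changes can be missed.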

Other observations

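Some gene groups outside the comparisons above were put together after the values were seen and are given as values. Among 17 clock genes, Per2, a repressor of the circadian loop, fell from 6.38, 6.43 and 6.12 to 4.71, 5.55 and 4.98 in experiments 1, 2 and 3, by 1.23 ± 0.16 (SE, n = 3 pairs; limma, adjusted p = 0.0106; -0.75 and 0.0237 with the mean of its probe sets). Nfil3, a clock-output repressor, fell by 0.94 ± 0.10, and Cipc, an inhibitor of CLOCK, rose from 7.96, 8.14 and 8.13 to 8.87, 8.93 and 8.83, by 0.80 ± 0.10 (adjusted p = 0.00584 and 0.00949). The part of the time of day at harvest in these changes was not tested. The other 14 clock genes were not called, and the list median of 0.04 was that of all genes. Among these 14, the core activators Arntl and Clock gave -0.05 and 0.04 (adjusted p = 0.829 and 0.888). The Per2 relatives Per1 and Per3 gave 0.14 and 0.19 (adjusted p = 0.563 and 0.415).

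Of 18 core and linker histone genes picked by symbol and tested 5 rose and 0 fell, with a median of 0.30, while mitotic genes fell in the same arrays. H4bc24 rose by 1.17, H3c7 by 0.77 ± 0.10, H2bc21 by 0.68 ± 0.11 and H3c14 by 0.64 ± 0.12 (SE, n = 3 pairs; adjusted p = 0.00313, 0.0102, 0.0186 and 0.0288). H2bc21 was lost without experiment 2 (0.68, adjusted p = 0.0733), as was H3c14 (0.61, 0.107), which was also lost without experiment 3 (0.53, 0.107). Histone paralogues are near-identical and may share probes. The part of the histone transcripts that labelling by 3' in vitro transcription reads was not tested.

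Of 10 guanylate-binding and immunity GTPases 7 fell and 0 rose, with a median of -0.67, and 7, 3 and 1 were called without experiment 1, 2 and 3. Iigp1 read 4.94, 5.16 and 7.45, then 3.30, 4.34 and 6.01, a fall by 1.30 ± 0.16 (adjusted p = 0.0102; -1.23 and 0.0527 without experiment 3). Of 13 progenitor transcription factors Myb and Gfi1 fell by 0.97 ± 0.12 and 0.97 ± 0.11 (adjusted p = 0.00896 and 0.00817), and 0 rose. Of 23 plexins and semaphorins 3 rose and 0 fell, among them Plxna2 by 1.16 ± 0.10 and Plxna1, a partner of TREM2 signalling in osteoclasts, by 0.97 ± 0.10 (adjusted p = 0.00384 and 0.00584). The mean of the Plxna1 probe sets was 0.57 (adjusted p = 0.0362). Fam20c, the kinase that phosphorylates secreted bone matrix proteins, rose by 0.88 ± 0.10 (adjusted p = 0.0086), with overlapping levels.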
